A study of Drosophila melanogaster with 3 samples.

Results

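Summits at the promoters of long noncoding RNA (lncRNA) genes were taken from the list of reproducible peaks of a chromatin immunoprecipitation study of the E(spl)mβ protein in Drosophila melanogaster embryos. A summit was included when a transcription start site (TSS) of an annotated lncRNA gene lay within 500 bp of it and every TSS of a protein-coding gene lay more than 500 bp away. The rule used positions only, and it took 193 of the 8549 reproducible summits on the chromosome arms. The other summits were 3569 within 500 bp of a coding TSS, called coding promoter summits here, and 4787 in neither set. A further 138 summits lay near starts of both kinds, and the rule counts these with the coding promoters. The 193 summits had the TSSs of 179 lncRNA genes as their nearest, with 165 genes at 1 summit and 14 at 2, and they lay in 187 peak intervals.

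The embryos were 0 to 24 h old, of mixed sex, and from a transgenic line that makes E(spl)mβ fused at its C terminus to enhanced green fluorescent protein. Chromatin in fragments of 200 to 800 bp was precipitated with an antibody against the fluorescent protein. The 3 biological replicates form a single group, so no genotype, stage or treatment was compared, and whole embryos mix every tissue. The files are peak lists on the dm6 build that hold no read totals, so the depth of the samples is unknown. The signal of a peak is the authors' enrichment value, which orders the peaks of a single list and cannot be set against values of another.

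The E(spl) proteins are transcriptional repressors with a basic helix-loop-helix domain, related to Hairy, and Notch signalling switches their genes on. Long noncoding RNAs are transcribed and often spliced like messenger RNAs but are not translated into a known protein. Some act in the nucleus as RNAs, such as the roX RNAs of dosage compensation, and others are the precursors from which microRNAs, small nucleolar RNAs (snoRNAs) or Piwi-interacting RNAs are cut. In flies, many lncRNA genes carry only a CR number and have no described role.

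The sequences around the strongest summits show what kind of DNA was bound. These windows of 201 bases are centred on the summit, read 5′ to 3′ on the plus strand of the Release 6 genome, and were chosen for 4 of the 5 highest signals. Capitals mark matches to GAGAG or CAGCTG on either strand. They are chr3R:17700466-17700666 near CR46036, chr3R:29214332-29214532 near CR31044, chr2L:17430097-17430297 near CR44409 and chrX:12752254-12752454 near CR44619.
CR46036: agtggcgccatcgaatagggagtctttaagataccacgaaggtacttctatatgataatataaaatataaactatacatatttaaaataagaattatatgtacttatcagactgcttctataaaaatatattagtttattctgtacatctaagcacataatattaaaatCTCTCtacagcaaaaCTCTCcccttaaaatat
CR31044: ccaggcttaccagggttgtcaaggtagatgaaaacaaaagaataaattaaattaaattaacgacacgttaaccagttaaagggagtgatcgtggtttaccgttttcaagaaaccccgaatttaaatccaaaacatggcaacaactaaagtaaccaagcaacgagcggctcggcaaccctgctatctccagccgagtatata
CR44409: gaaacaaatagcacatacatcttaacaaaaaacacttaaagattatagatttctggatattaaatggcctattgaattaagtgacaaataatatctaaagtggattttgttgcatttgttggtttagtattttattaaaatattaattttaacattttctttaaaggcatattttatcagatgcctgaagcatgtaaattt
CR44619: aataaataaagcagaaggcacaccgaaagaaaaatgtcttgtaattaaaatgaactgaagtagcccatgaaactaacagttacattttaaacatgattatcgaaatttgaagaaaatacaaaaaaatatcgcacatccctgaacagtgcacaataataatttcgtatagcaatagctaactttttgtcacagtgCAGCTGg
None of these windows holds CACGTG, the E-box that E(spl) repressors bind, or CACGCG, the Hairy-type site. Over all 193 summit windows the median content of G and C was 34.3%, against 35.3% at coding promoter summits and 34.3% at the summits in neither set. It was 40.8% at the 1763 lncRNA starts with no summit within 1000 bp, called lncRNA starts without a summit here. Those windows were centred on the start and not on a summit, and windows at all coding starts had 42.3%. The 40.8% is thus not a like comparison with the summit windows.

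The sites are shown next for the few summits that do hold them. The windows are chr2L:4350813-4351013 near CR44700 and chr2L:3476047-3476247 near CR43928, which have the highest signals among the summits with CACGTG, and chr2L:8852319-8852519 near CR45365, the next highest with CACGCG. Capitals mark CACGTG, or CACGCG on either strand.
CR44700: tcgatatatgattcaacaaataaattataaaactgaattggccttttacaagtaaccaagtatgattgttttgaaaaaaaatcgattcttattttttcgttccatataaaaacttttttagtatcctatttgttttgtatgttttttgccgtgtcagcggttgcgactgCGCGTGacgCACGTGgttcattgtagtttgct
CR43928: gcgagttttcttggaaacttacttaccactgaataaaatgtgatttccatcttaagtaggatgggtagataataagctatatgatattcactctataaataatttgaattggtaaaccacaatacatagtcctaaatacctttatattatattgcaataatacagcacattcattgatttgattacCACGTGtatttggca
CR45365: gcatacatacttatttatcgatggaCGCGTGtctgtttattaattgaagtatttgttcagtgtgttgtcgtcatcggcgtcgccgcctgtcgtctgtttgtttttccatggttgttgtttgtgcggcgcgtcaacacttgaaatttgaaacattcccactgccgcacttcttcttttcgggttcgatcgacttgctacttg
In CR44700 both sites stand close together near the right end of the window. In CR43928 and CR45365 the single marked site also lies toward an end of the window and not beside the summit at its centre.

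Most lncRNA starts had no summit. Of the 2026 lncRNA genes with a start more than 500 bp from coding starts, 176 (8.69%, exact 95% interval 7.496 to 9.999%) had a summit within 500 bp of such a start. Among the 13945 protein-coding genes the share was 28.1% (27.4 to 28.9%). Among the 428 lncRNA genes whose starts all lie within 500 bp of a coding start it was 22.9% (19.0 to 27.2%), between those of both other groups. These intervals cover the counting of genes only. The shares are per gene, and coding genes had more starts each, with 19607 for 13945 genes against 2143 for the 2026. A coding gene could also count any summit, and a lncRNA gene only those off coding starts. By start the lncRNA share was 8.59%, and a coding share by start was not taken. The lncRNA share per gene depends on the distance allowed, at 4.64% within 250 bp and 14.2% within 1000 bp of a lncRNA start.

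In each replicate the same share was taken from its strongest peaks, as many as the reproducible list holds. For lncRNA genes it was 8.34%, 8.39% and 8.49% in replicates 1, 2 and 3, and for protein-coding genes 28.8%, 29.5% and 29.1%. The shares of the replicates do not overlap between both kinds of gene, and the difference was −20.74 ± 0.36 percentage points (SD, n = 3). An exact sign-flip permutation test over 3 replicates cannot give a two-sided p below 0.25, and it gave 0.25. In all, 21 such tests were made. Of these, 18 gave that smallest value, with an adjusted p of 0.292 (Benjamini-Hochberg), so none passes a threshold of 0.05, and the size and the direction in each replicate are given in place of a call.

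Per length of DNA, summits were denser near lncRNA starts than away from any start. The 2.00 Mb within 500 bp of a lncRNA start and farther than 500 bp from coding starts held 96.5 summits per Mb. The DNA within 500 bp of coding starts held 232.8 per Mb, and the rest of the arms 41.2 per Mb. With 1000 bp allowed from a lncRNA start, the rule took 356 summits in place of 193. A wider window takes more summits at any density, and the density of the wider windows was not computed. How far the excess reaches from the starts is thus not settled by this count. In the profile below, the density was 0.0497 summits per start per kb from 800 to 600 bp upstream. From 600 to 800 bp downstream it was 0.119.

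**Figure D1:**
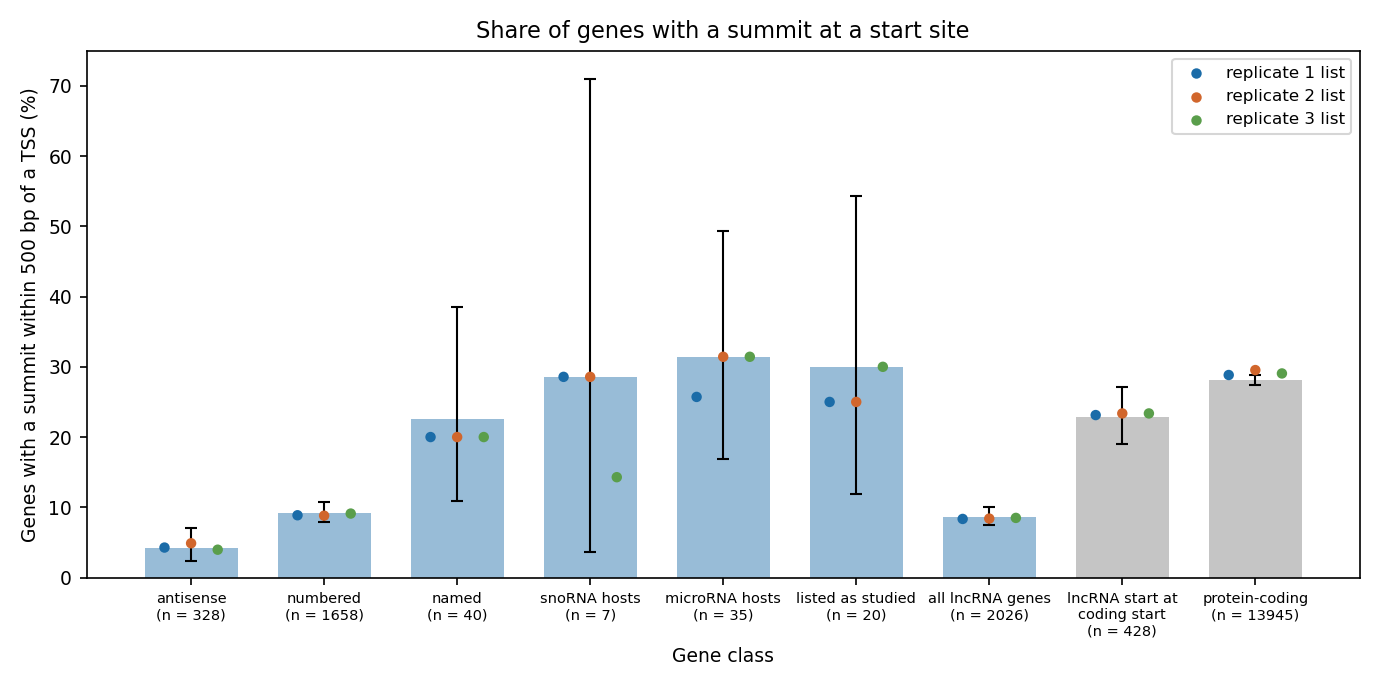
Percent of genes with a summit within 500 bp of a TSS, by gene class (bars, reproducible list; error bars, exact 95% binomial intervals; points, the strongest peaks of each replicate). The bar for all lncRNA genes stands at 8.69%, microRNA hosts at 31.4% and protein-coding genes at 28.1%.

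In strength, the lncRNA promoter summits were closer to coding promoter summits than to the rest. Their median signal was 580.8 (95% interval from order statistics 512.6 to 652.6), against 588.0 (572.8 to 607.8) at coding promoter summits and 500.8 (490.4 to 512.0) at the summits in neither set. Signals ran from 287.0 to 6093.8. The strongest quintile of the reproducible list held 54 of the 193 (28.0%), its strongest 10% held 26 (13.5%), and the weakest quintile 36 (18.7%).

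Replicate ranks gave the same picture. The median percentile of the 193 summits in the full lists of replicates 1, 2 and 3 was 87.61, 87.18 and 86.65, against 85.86, 85.36 and 85.75 for all other reproducible summits. The difference was positive in 3 of 3 replicates (1.49 ± 0.51 points, SD, n = 3, exact sign-flip permutation p = 0.25). Against the summits in neither set it was 2.96, 3.20 and 2.38 points. Against coding promoter summits it was 0.21, −0.19 and −1.58 points, so no common direction appears there (mean −0.52, exact permutation p = 0.75). Only summits with a replicate summit within 100 bp enter, which were 187, 191 and 179 of the 193.

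A top-ranked peak of all 3 replicates held the summit at 134 of the 193 (69.4%, exact 95% interval 62.4 to 75.8%), near the 67.7% of all reproducible summits. A further 44 were held in 2 replicates, 14 in 1 and 1 in none. The 59 summits short of full support had a median signal of 341.4, against 734.4 for the 134. The less supported summits were the weaker ones, which follows largely from the definition, since support was counted in the strongest peaks of each replicate. The strongest exception, noticed after its values were seen, lies upstream of CR45531 with a signal of 1655.9. It has another summit of 1356.8 in the same interval, and replicate 1 has a summit within 100 bp of the weaker one only. Across the summits, Spearman correlations of signal between replicates were 0.868 for 1 and 2, 0.814 for 1 and 3 and 0.850 for 2 and 3, as a description over 185, 175 and 178 summits that share libraries.

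Of the 20 strongest lncRNA promoter summits, 15 lay between coding genes and 5 inside a coding gene on the opposite strand. All 20 had top-ranked peaks in 3 replicates, and 14 lay upstream of the start. In 15 of the 20, no stronger summit lay within 5 kb.

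The strongest of all was 172 bp upstream of CR44339, on 2R at 12985195, with a signal of 6093.8 at rank 41 of the reproducible list. Its signals were 2842.7, 1387.8 and 1865.3 in replicates 1, 2 and 3, at ranks 38, 39 and 54 of those lists. The nearest coding start, 4201 bp away, is that of Psc, a Polycomb group gene. The window 175 bp upstream of CR46036 followed with 5611.2, and its replicate signals were 2616.2, 1200.1 and 1816.7. CR46036 lies within osa, which encodes a subunit of a SWI/SNF chromatin remodelling complex, on the other strand. CR46036 ranked 48, 56 and 58, so both summits were among the strongest of every replicate.

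CR31044, the host of mir-279 and mir-996, microRNAs that act in the formation of sensory organs and neurons, had 5152.2 at 130 bp upstream of its start. Replicate signals there were 2390.7, 1147.1 and 1643.4, at ranks 61, 64 and 79. The nearest coding start is that of eEF1gamma, a translation elongation factor gene, at 5740 bp. This is the strongest summit at a small RNA host, and no summit within 5 kb was stronger.

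At CR44409 the summit lay 491 bp downstream of the start, near the limit of the rule, with 4931.7 and replicate signals of 2049.5, 1114.9 and 1785.4. CR44409 lies within Dif, which encodes a transcription factor of the NF-κB family in immunity. The summit near CR44619 was also close to the limit, at 487 bp downstream (4583.6, with 1829.1, 1043.4 and 1692.1 in the replicates). For this pair the nearest start is a weak guide to the site. Within 5 kb of the CR44619 summit lies a stronger one of 10977.1, at 1429 bp from the start of Vinr. It falls on the other side of the limit, between 501 and 550 bp from a lncRNA start. The CR44619 summit is thus not the strongest of its surroundings.

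The antisense gene CR44429 had 4516.9 at 262 bp upstream of its start, within gce, which encodes a juvenile hormone receptor. Its replicate signals were 1798.8, 1017.3 and 1731.8. The nearest coding start, of gce itself, is 530 bp away, so this summit is just inside the rule. CR45352 and CR31840, neighbours on 2L, had 4032.5 and 3135.6, at ranks 177, 116 and 102 and at ranks 217, 153 and 354 of the replicates. CR31840 thus stood lower in replicate 3 than in the other two.

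The summit 451 bp upstream of CR42657 had 3294.9 and ranked 154, 276 and 276 in the replicates. Its nearest coding start, at 672 bp, is that of nej, which encodes the CBP histone acetyltransferase. Near pnut, a septin gene, CR44276 had 2618.7, and near l(3)neo38, CR45595 had 2614.4. In beat-Ib, a gene of the Beaten path family of neuronal surface proteins, CR44867 and CR44868 had 2513.7 and 2468.8.

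The other genes among the 20 were CR45541 near Hex-A, a hexokinase gene (2243.4), CR44810 near slbo, which encodes a C/EBP transcription factor of border cells (2146.3), CR44676 (2016.3) and CR45251 just below it, besides the small RNA hosts and Hsromega described below. Their ranks in the 3 replicates ran from 334 to 741. The numbered genes among them are given by position only.

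**Figure D2:**
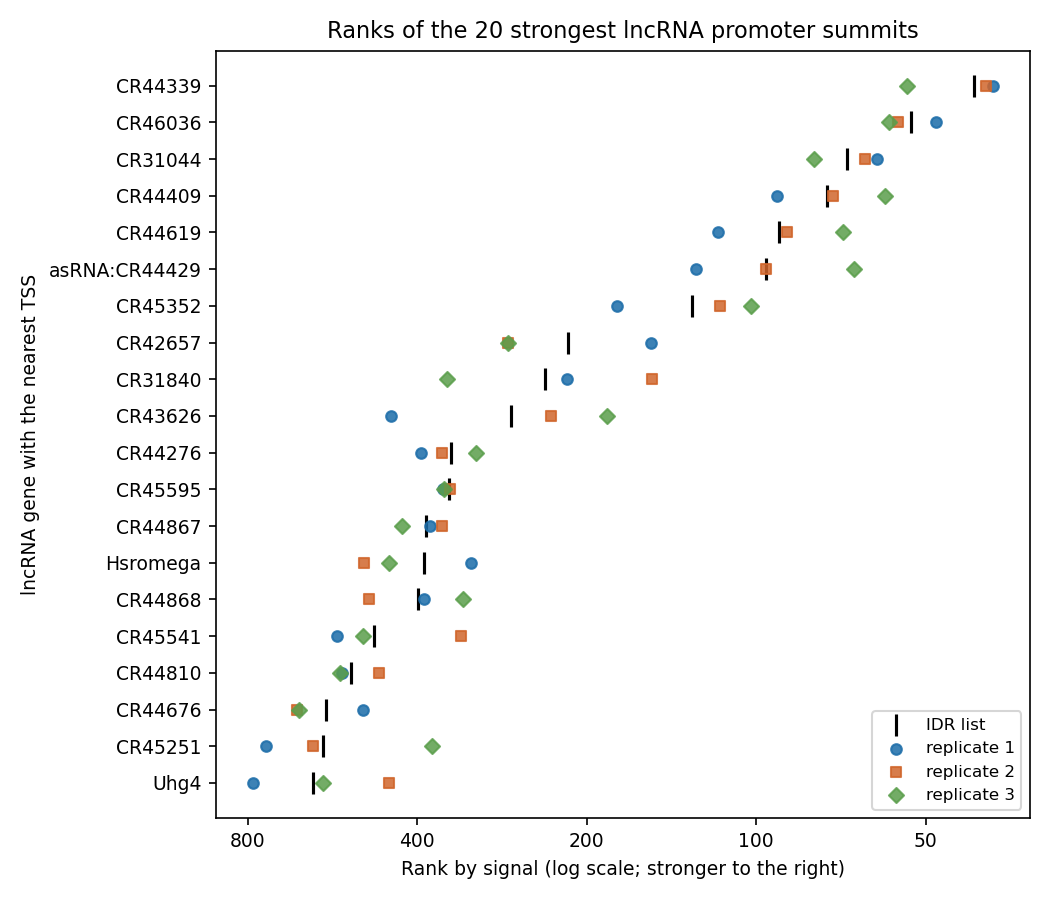
Rank by signal of the 20 strongest lncRNA promoter summits in the reproducible list (black bars) and in the full lists of the 3 replicates (points), on a log scale with stronger peaks to the right. CR44339 ranks 38, 39 and 54 in the replicates and Uhg4, the last, 782, 449 and 589.

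At the other end of the list, the 5 weakest summits lay near CR44863 (293.4), CR43893 (292.1), CR44164 (289.2), CR45539 (288.1) and CR44717 (287.0). None had top-ranked peaks in all 3 replicates. That near CR44863 ranked 7878, 21691 and 7161 in replicates 1, 2 and 3, so replicate 2 stands apart. CR43893 lies within fz2, a Wnt receptor gene.

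Summits were less sharply placed at annotated lncRNA starts than at annotated coding starts. The offsets rest on the precision of the annotated starts, and its part in this difference was not tested. Some numbered genes on 2R have both ends at positions that end in 95, such as CR44380 (16814395 to 16815495). The median summit lay 86 bp upstream of the start (quartiles 241 bp upstream and 230 bp downstream), against 113 bp upstream at coding promoters (quartiles 207 and 12 bp upstream). Of the 193, 111 were upstream (57.5%, exact 95% interval 50.2 to 64.6%), against 77.6% of coding promoter summits. Within 250 bp of the start lay 51.8%, against 78.1%. The median distance in either direction was 241 bp, against 132 bp. At lncRNA starts these distances are about those of an even spread over the 500 bp that the rule allows.

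The replicates kept this order when the rule was applied to the top-ranked peaks of each. Upstream shares were 58.6%, 59.6% and 63.3% at lncRNA promoters, against 74.3%, 76.2% and 81.4% at coding promoters in replicates 1, 2 and 3. Shares within 250 bp were 52.2%, 53.2% and 49.5%, against 79.8%, 78.6% and 76.3%. No replicate overlaps the other set in either measure. The differences were −16.8 ± 1.19 and −26.6 ± 1.09 percentage points (SD, n = 3), each with an exact sign-flip permutation p of 0.25.

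Around the 1307 lncRNA starts with no coding start within 2500 bp, the summit density per start was uneven and low. It was 0.115 and 0.119 summits per start per kb from 400 to 200 and from 200 to 0 bp upstream, 0.0497 in the first 200 bp downstream, and 0.115 and 0.119 between 400 and 800 bp downstream. From 2000 to 600 bp upstream it ran between 0.0497 and 0.0689, and from 800 to 2000 bp downstream between 0.0612 and 0.0918, which are 16 to 24 summits per bin against 30 and 31 from 400 to 800 bp. Around all 19607 coding starts it reached 0.690 in the last 200 bp upstream and 0.200 in the first 200 bp downstream. The coding profile thus has 1 tall rise at the start. The noncoding one rises to the same low height from 400 bp upstream to the start and from 400 to 800 bp downstream. The flank beyond the rise runs somewhat higher downstream than upstream.

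**Figure D3:**
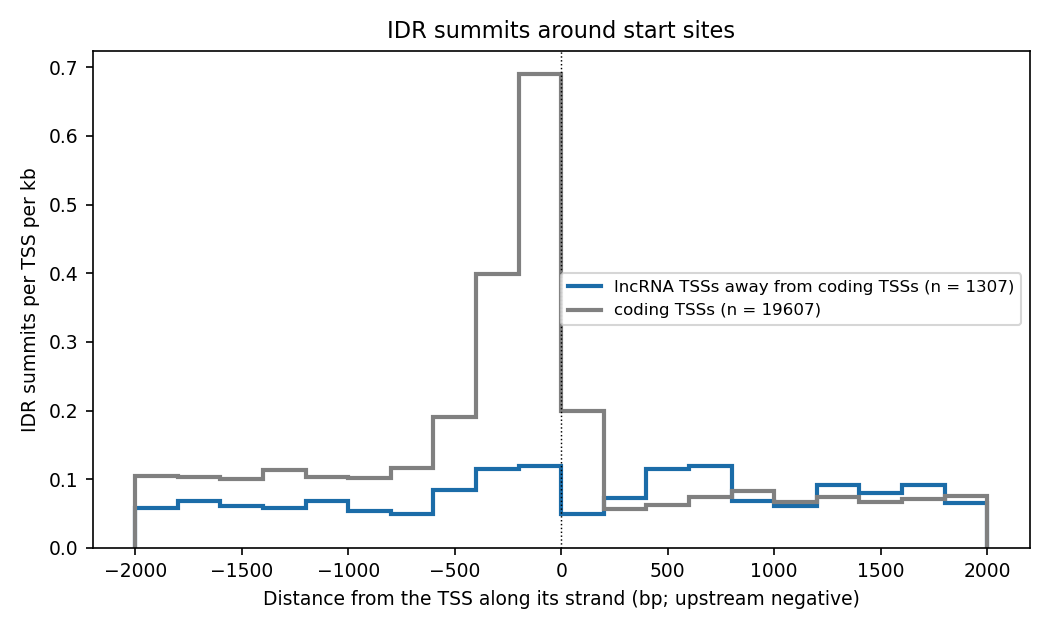
Reproducible summits per TSS per kb in bins of 200 bp around lncRNA TSSs with no coding TSS within 2500 bp (blue) and around all coding TSSs (grey); upstream is negative. In the last 200 bp upstream the lncRNA line stands at 0.119 and the coding line at 0.690.

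Many of these summits stood among coding genes. Of the 193, 138 (71.5%) lay between coding genes, 44 inside a coding gene on the strand opposite to the lncRNA gene, and 11 inside one on the same strand. Inside coding genes were thus 55 (28.5%, exact 95% interval 22.2 to 35.4%), against 67.7% of the summits in neither set. Of the eligible lncRNA genes, 125 of 1309 between coding genes (9.55%), 41 of 545 on the opposite strand of one (7.52%) and 10 of 163 on the same strand (6.13%) had a summit. The exact intervals of these 3 shares overlap.

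The nearest coding start was a median of 2903 bp away, from 517 bp at Uhg4 to 48814 bp at CR46006. The 29 summits within 1000 bp of a coding start had a median signal of 560.4, the 101 between 1000 and 5000 bp 604.6, and the 63 beyond 5000 bp 509.3. Signal thus showed no steady trend with distance to coding starts. A single summit, the weaker of the pair at CR43626, lay in a coding exon.

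Other binding was usually near. The nearest coding gene had a summit of its own within 500 bp of a start in 97 cases (50.3%), against 28.1% of all protein-coding genes. Of the 193, 89 (46.1%) were the strongest summit within 5 kb. Neither share was taken for the other sets of summits. No other reproducible summit lay within 5 kb at 33 (17.1%, exact 95% interval 12.1 to 23.2%), against 27.3% of coding promoter summits and 25.9% of the summits in neither set. Summits that stand alone were thus a smaller share here.

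**Figure D4:**
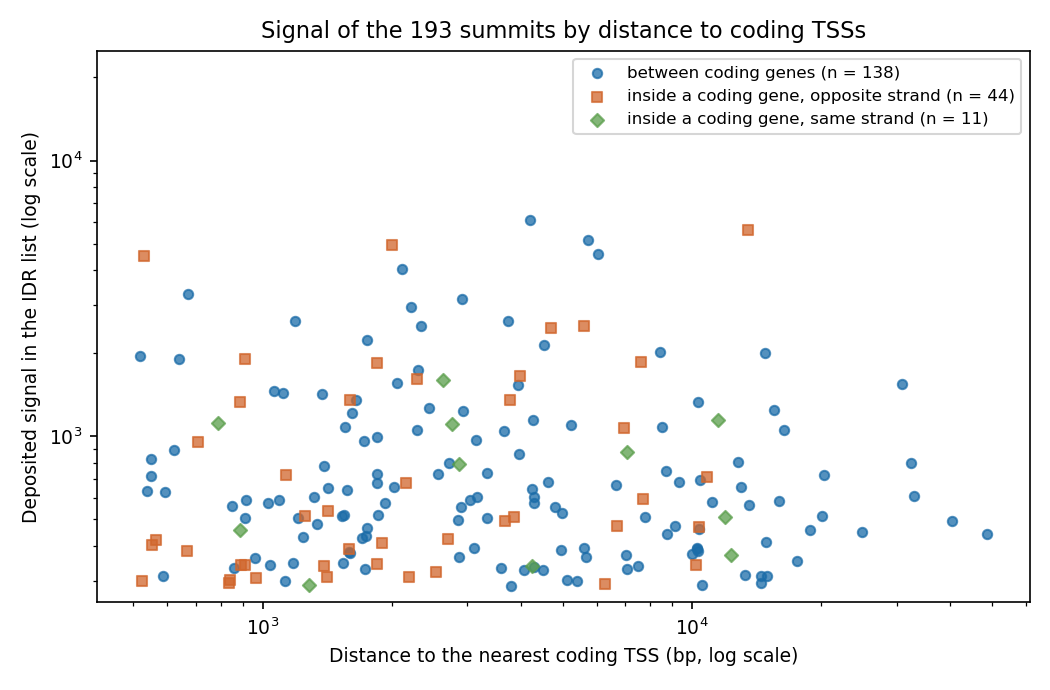
Deposited signal of each of the 193 summits against its distance to the nearest coding TSS (both axes log), with the colour giving the place relative to coding genes. The 138 between coding genes span the whole range, and the 5 strongest lie from 1998 to 13495 bp from a coding TSS.

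Hosts of microRNAs had summits at a higher share than lncRNA genes as a whole. A gene was taken as a host when an annotated microRNA lies within it on the same strand. Of the 35 eligible hosts, 11 had a summit (31.4%, exact 95% interval 16.9 to 49.3%), against 8.69% of all eligible lncRNA genes. In the replicates they were 9, 11 and 11 of the 35, or 25.7%, 31.4% and 31.4%, against 8.34%, 8.39% and 8.49%. The hosts are longer, at a median of 6494 bp against 721 bp, and by start site their share was 15 of 57 (26.3%), against 8.59%. Among the stronger 50% of the reproducible list 7 hosts had a summit (20%), against 4.94%. The part of length and of the number of starts in this difference was not tested.

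After CR31044 the strongest was CR43626, the host of mir-282, with 2942.8 at 360 bp upstream of a start and replicate signals of 1013.8, 715.9 and 1220.8. Its other summit, at another start, had 457.1. Hsromega, whose heat-inducible nuclear RNA gathers RNA-binding proteins in omega speckles and which holds mir-4951, had 2503.9 at 209 bp downstream. The replicates gave 1209.3, 497.8 and 794.8 there, at ranks 321, 498 and 449. All 3 of these hosts were thus among the 20 strongest lncRNA promoter summits.

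CR43650, the host of mir-8, a microRNA of the miR-200 family, had 1049.0 at 160 bp upstream and 329.9 at another start. Replicate signals at the stronger were 437.5, 284.6 and 361.9, and its window is among the 3 that hold CACGTG. CR43334, the host of bantam, which promotes growth and restrains cell death, had 723.2 and 512.6. The stronger of these ranked 1722, 2493 and 6863 in replicates 1, 2 and 3, so it was lower in replicate 3. The weaker one ranked 16875, 9992 and 13680, far below its place at 4502 in the reproducible list.

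CR43314, the host of mir-bft, had 694.5, with replicate signals of 364.9, 142.5 and 198.2. CR43651, the host of mir-14, had 681.3 at 86 bp upstream of its start, with 411.3, 149.3 and 135.5. CR42651, the host of mir-10 in the Antennapedia complex of Hox genes, had 449.7. CR46006, the host of mir-276a, had 443.1 at 15 bp upstream, and its coding neighbours are the most distant of all. CR43459, the host of mir-277 and mir-34, had 311.8 and a top-ranked peak in 1 replicate. These hosts span the list from its upper part to near its lower end.

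The antisense gene CR46194, the host of the mir-281 pair, had 1120.2 at 367 bp upstream of its start. Its replicate signals were 438.0, 324.3 and 390.3. That start lies within 500 bp of a coding start, so it counts among the 193 summits but not among the 35 eligible hosts.

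Of the 7 eligible hosts of snoRNAs, which guide the modification of ribosomal RNA, 2 had a summit (28.6%, exact 95% interval 3.67 to 71.0%). Uhg4 had 1962.8 at 98 bp upstream of its start, with replicate signals of 757.6, 523.1 and 698.8. Uhg1 had 631.5 at 198 bp upstream, with 297.6, 91.6 and 242.3. With 7 genes the share has a wide interval that includes that of all lncRNA genes.

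Antisense genes, which overlap another gene on the other strand, had summits least often among the symbol classes, at 14 of 328 eligible (4.27%, exact 95% interval 2.35 to 7.06%). Numbered genes had them at 153 of 1658 (9.23%) and named genes at 9 of 40 (22.5%, 10.8 to 38.5%). By start site the named share was 11 of 57 (19.3%), against 8.59% of all eligible lncRNA starts. In replicates 1, 2 and 3 antisense genes were at 4.27%, 4.88% and 3.96%, and all eligible genes at 8.34%, 8.39% and 8.49%. Without replicate 2, counting only summits with support of both other replicates, the antisense share was 2.74% (9 genes), against 6.66% of all eligible genes. By the same count without replicate 3, the named share was 15.0% (6 genes), against 7.01%. The classes were compared with knowledge of earlier results, and these shares are a description.

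Of 29 listed lncRNAs with a described role, 20 were found in the annotation, and 6 of these (30.0%, exact 95% interval 11.9 to 54.3%) had a summit, against 8.69% of all eligible lncRNA genes. With support of both other replicates, 4 were left without replicate 1, 4 without replicate 2 and 3 without replicate 3 (20%, 20% and 15.0%), against 6.66%, 6.66% and 7.01%. By start site the share was 8 of 37 (21.6%), against 8.59%. The 20 genes are longer, at a median of 2396.5 bp against 721 bp, and the part of length and number of starts was not tested. They also count among the named genes, and Hsromega, iab8, iab4 and let7C also among the microRNA hosts. Of the 6, Hsromega had the strongest summit. The start of flam, a locus that makes Piwi-interacting RNAs against transposons in ovarian somatic cells, had 1084.8 at 190 bp upstream, with replicate signals of 438.9, 247.7 and 377.3. A weaker summit of flam at 11 bp downstream, with 465.1, was the only one of the 193 in a top-ranked peak of no replicate. Their peak intervals overlap, and no replicate has both among its top-ranked peaks.

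The remaining 4 had weak to middling summits. TS2 had 668.3, at 55 bp downstream of its start, with 334.8, 172.3 and 184.9. Near marge the summit had 382.0 and a top-ranked peak in 1 replicate, at 402 bp upstream. For iab8, which is transcribed through the bithorax complex of Hox genes, the value was 333.8 at 49 bp upstream, with 135.6, 77.7 and 117.0. For roX1, an RNA of the dosage compensation complex of the male X chromosome, it was 326.6 at 47 bp downstream, with 163.2, 71.3 and 99.4. Both iab8 and roX1 had top-ranked peaks in 2 of 3 replicates. TS16, a named gene outside that list, had 652.6 exactly at its start, with 208.1, 155.9 and 217.1.

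The 14 others had no reproducible summit within 500 bp of a start. They were roX2, iab4, bxd, noe, sphinx, let7C, CRG, yar, dntRL, acal, TS1, TS3, TS4 and Vinr. The roX RNAs, which act together, thus differ in the list, and roX1 is itself near its lower end.

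A group of 5 lncRNA promoter summits lay within 50 kb of the tagged gene, in the E(spl) complex of Notch target genes. CR43644, near E(spl)m3-HLH, had 1435.2 and 504.4 at 367 and 162 bp downstream of its start. The stronger had replicate signals of 1048.9, 221.4 and 262.7, at ranks 419, 1980 and 2617, so replicate 1 stands far above the others. CR45038 had 638.0, CR45037 had 587.6 and CR45039 had 431.5, the last at ranks 7113, 2752 and 3377, where replicate 1 is the lowest. The line carries a tagged copy of E(spl)mbeta-HLH, and its share in the signal of this region was not measured. Without these 5 summits the median signal of the others was 579.2.

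Few windows held the sites known for the protein's own family. The motifs were searched on both strands within 100 bp of the summit. CACGTG was in 3 of 193 windows (1.55%, exact 95% interval 0.322 to 4.48%), against 4.12% of coding promoter summits and 4.14% of the summits in neither set. It was in 2.21% of windows at lncRNA starts without a summit. Those windows, here and for the motifs below, were centred on the start and not on a summit. In wider windows of 200 bp on each side the shares came closer, at 6.22% against 7.79% and 6.83%. The lncRNA genes with a match within 100 bp are CR44700, CR43928 and CR43650. The longer GGCACGTG, which contains CACGTG, was in none of 193, against 0.925% and 1.63%. A count of 0 allows a share of up to 1.55% by a floor of 3 counts, and up to 1.89% by the exact 95% interval. At this number of windows a difference in GGCACGTG was not detectable.

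CACGCG was in 12 windows (6.22%), against 7.96% and 6.73%, and 3.52% of lncRNA starts without a summit. CACGAG, a form of the N-box that E(spl) repressors also bind, was in 10 windows (5.18%, exact 95% interval 2.51 to 9.32%), against 4.37% and 4.32%. In replicates 1, 2 and 3 it was in 5.91%, 5.32% and 4.26%, against 4.67%, 4.48% and 3.97% at coding promoters, so unlike CACGTG it was slightly higher in 3 of 3 (0.79 ± 0.48 percentage points, SD, exact sign-flip permutation p = 0.25). The strongest carriers of CACGCG were CR44700 (1561.2) and CR45365 (1336.9). In the top-ranked peaks of replicates 1, 2 and 3, CACGTG was in 2.15%, 1.60% and 1.06% of windows at lncRNA promoters, against 3.84%, 3.59% and 3.46% at coding promoters. The share was lower in 3 of 3 replicates (−2.03 ± 0.36 percentage points, SD, exact sign-flip permutation p = 0.25). It rests on few of the 186, 188 and 188 windows. For every motif the replicate lists share many windows, as 134 of the 193 summits were held in all 3. Their agreement and the SD thus do not measure the uncertainty of a share. Over the 193 windows, the exact 95% interval for CACGTG, 0.322 to 4.48%, includes the 4.12% of coding promoter summits.

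Motifs of coding promoters were also rare. TATCGATA, the site of the promoter factor DREF, was in 1 window (0.518%), at CR45297, against 6.39% of coding promoter summits and 0.480% of the summits in neither set. GGTCACAC, part of the core promoter motif known as motif 1, was in none (exact 95% interval up to 1.89%, and 1.55% by a floor of 3 counts), against 4.18% and 0.418%. The short CGATA, which TATCGATA contains, was in 15.5%, against 35.6% and 19.0%. In replicates 1, 2 and 3 it was in 19.4%, 17.6% and 18.1% of windows, against 35.3%, 35.5% and 35.3% at coding promoters, a difference of −17.1 ± 1.05 percentage points (SD, n = 3, exact sign-flip permutation p = 0.25). By these motifs the lncRNA promoter summits were closer to the summits in neither set than to coding promoters. At lncRNA starts without a summit, TATCGATA, GGTCACAC and CGATA were in 0.624%, 0.454% and 20.5% of windows. At all coding starts, with or without a summit, they were in 6.45%, 5.68% and 37.1%. The difference between lncRNA and coding starts in these motifs is thus not particular to those with a summit.

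The E-box CAGCTG was in 14 windows (7.25%, exact 95% interval 4.02 to 11.9%), against 10.7% at coding promoter summits and 6.12% in neither set. In replicates 1, 2 and 3 it was in 5.91%, 9.04% and 5.85%, against 12.2%, 11.2% and 9.87% at coding promoters, lower in 3 of 3 (−4.18 ± 2.07 percentage points, SD, exact sign-flip permutation p = 0.25). GAGAG, bound by GAGA factor, was in 20.7%, against 24.1% at coding promoter summits and 22.2% in neither set. The general E-box CANNTG, which contains CACGTG, was in 53.4%, against 57.9% and 60.6%. GTGGGAA, the core of sites of the Notch effector Su(H), was in 6 windows (3.11%, exact 95% interval 1.15 to 6.64%), against 2.69%, 1.80% and, at lncRNA starts without a summit, 2.27%. It had 2 matches at CR43644 in the E(spl) complex. A match describes the letters of the window and not bound protein.

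Along the genome, X held 22 of the 193 summits, 2L 46, 2R 38, 3L 42, 3R 45 and chromosome 4 none. On X, 17 of 239 eligible lncRNA genes had a summit (7.11%), and on the large autosomal arms 8.48% (2L), 10.5% (2R), 8.25% (3L) and 9.34% (3R). The exact intervals of these shares overlap. Chromosome 4 has 19 eligible genes, so 0 there allows a share of up to 15.8% by a floor of 3 counts, and the exact interval reaches 17.65%.

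The limits of the rule cut through a continuous spread of distances. The 23 summits between 451 and 500 bp from a lncRNA start had signals from 293.4 to 4931.7 (median 573.9), and the 19 between 501 and 550 bp, which the rule leaves out, from 305.3 to 10977.1 (median 706.4). On the coding side, 4 summits at 501 to 550 bp had a median of 1297.1, and the 6 left out at 451 to 500 bp had 741.3.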

How the data were processed

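The deposited files are peak lists, per the file headers on dm6, for each replicate, for the pooled reads and for the peaks that passed the irreproducible discovery rate (IDR). The authors gave each peak a signal, which ranks it within its list, a −log10 q-value, which the authors deposited and which was not used for ranking, and a summit offset. The sources used here name neither an aligner nor a peak caller. Replicate lists each held 30000 peaks, and the depth is unknown.

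Summits were placed at the peak's start plus the deposited offset and set against the Ensembl release 115 annotation of the Release 6 genome. The lncRNA genes were the 2454 of the noncoding RNA biotype with symbols starting lncRNA:, asRNA:, CR or Uhg. Another 807 genes of that biotype, mainly small RNAs, were left out. Support means that a summit lies in one of the 8549 strongest peaks of a replicate. Replicate signals are those of the nearest summit within 100 bp.

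Shares carry exact Clopper-Pearson 95% intervals that cover counting only. Replicates were tested with exact two-sided sign-flip permutations. Genes, summits and windows are not replicates, so no test ran over them. The members and gene lists were chosen with earlier results of these data known. Named were the genes at the 20 strongest and 5 weakest summits, the bound genes of the named, host and described lists, and the unbound described ones. Scripts were tested on simulated positions. Python 3.11.15, numpy 2.4.6, pandas 2.3.3, scipy 1.17.1 and matplotlib 3.10.9 were used. Alternatives were other distances, peak lists, windows and left-out replicates.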

Additional observations from a re-analysis of the deposited data

How the results depend on the processing

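Of 135 alternative values, 101 were counted as unchanged. A count had to stay within 1.5 times of the reported one, and a share or median within the reported 95% interval. A rank difference had only to keep its sign. The 193 summits became 106 among the stronger 50% of the reproducible list, and 100 and 356 at 250 and 1000 bp from a lncRNA start. Without replicate 1, 2 or 3 they numbered 143 to 156. For counts and shares, leaving out a replicate meant keeping the summits held by a top-ranked peak of both others, which is a stricter rule. The share of lncRNA genes with a summit, 8.69%, was 4.64% and 14.2% at 250 and 1000 bp, 4.94% among the stronger 50%, and 6.66% to 7.01% without a replicate. The median signal was 1051.3 among the stronger 50%, which holds high signals by construction. Support in 3 replicates was 94.3% in their full lists and 96.2% among the stronger 50%. The rank difference was negative, at −0.52 points, against coding promoter summits. It was 1.33 to 1.79 points against all other summits when a replicate was left out of the mean. CACGTG was in 0% and 6.22% of windows of 50 and 200 bp on each side, where coding promoter summits had 2.10% and 7.79%, so its lower share shrank in the wider window. CACGCG was in 3.11% and 11.9%, against 4.43% and 13.8%. Antisense genes were at 1.83% among the stronger 50% and 2.74% to 3.96% without a replicate, and described lncRNAs at 15.0% and at 15.0% to 20%, alternatives chosen after seeing the data. Counting every gene of the noncoding biotype, also chosen afterwards, gave 206 summits.

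No paired analysis was possible because the samples form a single group. Peak sets without a replicate are subsets of a list made from all 3 replicates. Depth is unknown, so a missing summit is not evidence that binding was absent.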

Other observations

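Several lncRNA promoters without a reproducible summit had a weaker peak in the authors' pooled list, which was not used above. Of the 14 described lncRNAs without one, 8 had such a peak within 500 bp of a start, against 353 of the 1850 eligible lncRNA genes without one (19.1%, exact 95% interval 17.3 to 20.9%). The highest signals among them were 264.4 near yar, 204.8 near roX2, the partner of roX1 in dosage compensation, 148.7 near Vinr and 145.5 near noe. The nearest pooled summits of bxd, acal, TS1 and iab4 had 82.7, 81.6, 60.8 and 60.1. The reproducible peaks carry the same signal in the pooled list and are its 8549 strongest, so these values lie below the 286.5 of the weakest of them. Among microRNA hosts without a reproducible summit, 9 of 24 had a weaker pooled peak near a start (37.5%, exact 95% interval 18.8 to 59.4%), among them the hosts of mir-184 (198.6), mir-13a and mir-2c (176.4), mir-1, which acts in muscle (156.1), and mir-124, which acts in neurons (79.0).

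The rule leaves out starts shared with coding genes, and some snoRNA hosts stand there. Uhg8, Uhg2 and Uhg5 had reproducible summits of 1366.0, 1256.3 and 426.7 at 217, 103 and 2 bp from a start. The summit 268 bp from a start of enrr had 4953.1. Over all 138 summits near starts of both kinds, the median signal was 600.0 and 69.6% had support in 3 replicates, against 580.8 and 69.4% for the 193.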
